A study of Drosophila melanogaster with 6 samples.

Results

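The 27 genes described here had high array signals in 2 of 3 samples of yw fruit fly embryos, replicates 1 and 2, and lower signals in the third yw sample and in all 3 samples of embryos from zld mutant germ lines. They were chosen by their measured signals. The lower signal of yw replicates 1 and 2 had to be at least 40 and at least 2 times the highest signal of the other 4 arrays, and the probe set, the group of short probes that reports a transcript, had to carry exactly 1 gene symbol other than a CG number. Of 7979 such probe sets, 30 (0.376%) met the level and the ratio. The symbols vkg, Col4a1, SPARC, LanA, LanB1 and Osi6 were left out beforehand, which removed 3 of the 30 and left 27 probe sets for 27 genes. All differences between yw replicates 1 and 2 and the other arrays are therefore descriptions of how the genes were picked, with no test.

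Most of these genes are known for tissues that form long after the blastoderm. A fly embryo begins as a syncytium that divides on maternal RNA, and its own genes come on gradually during the last of the rapid nuclear divisions, for which the maternally loaded zinc finger factor Zelda (zld) is needed. The larval cuticle, a layered sheet of chitin and protein, is secreted by the epidermis and trachea late in embryogenesis, and the contractile proteins of the larval muscles are also made in the later embryo. A minority of the 27 genes are regulators known to act in the blastoderm itself.

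Samples of Drosophila melanogaster embryos aged 1 to 2 h, 6 in all, were profiled on Affymetrix Drosophila Genome 2 arrays, 1 array per sample. The 3 zld samples were embryos laid by mothers with germ-line clones mutant for zld, so that maternal zld function was missing from the egg; no source used here gives the allele or the fathers' genotype. The 3 control samples were embryos of the stock yw, called wild type in the labels and named for the yellow and white markers. Staging was by age alone; in a subset stained for DNA, the submitters found 90% of embryos between nuclear cycles 8 and 13. Each sample is RNA from whole embryos in bulk, so fewer cells or embryos of a kind and less RNA per cell cannot be told apart in any value below. The zld transcript itself had signals of 263.1, 195.7 and 214.9 in zld embryos, against 1023.2, 1062.4 and 966.8 in yw embryos.

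Signals of 27 control probe sets for Bacillus transcripts, which a fly does not make, set the background. Their 95th percentile over all 6 arrays was 18.1, and signals under this level are treated here as not above background. The level was not equal on all arrays. The 95th percentile of the Bacillus controls was 14.1, 12.95 and 16.4 on the zld arrays, against 24.0, 25.0 and 15.9 on yw replicates 1, 2 and 3, so that it was highest on yw replicates 1 and 2. Its part in the choice of the genes was not tested. Every chosen gene had at least 43.0 on both of those arrays, but the rule itself set a lowest level there. That minimum therefore does not answer the question. Where the 4 low arrays were all under 18.1, a ratio is given against 18.1 as "at least". That held for 13 of the 27 genes. Summed over the 27 genes, the signal was 512.7, 497.2 and 551.6 on the zld arrays, against 3289.8, 4831.0 and 985.8 on yw replicates 1, 2 and 3.

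**Figure D1:**
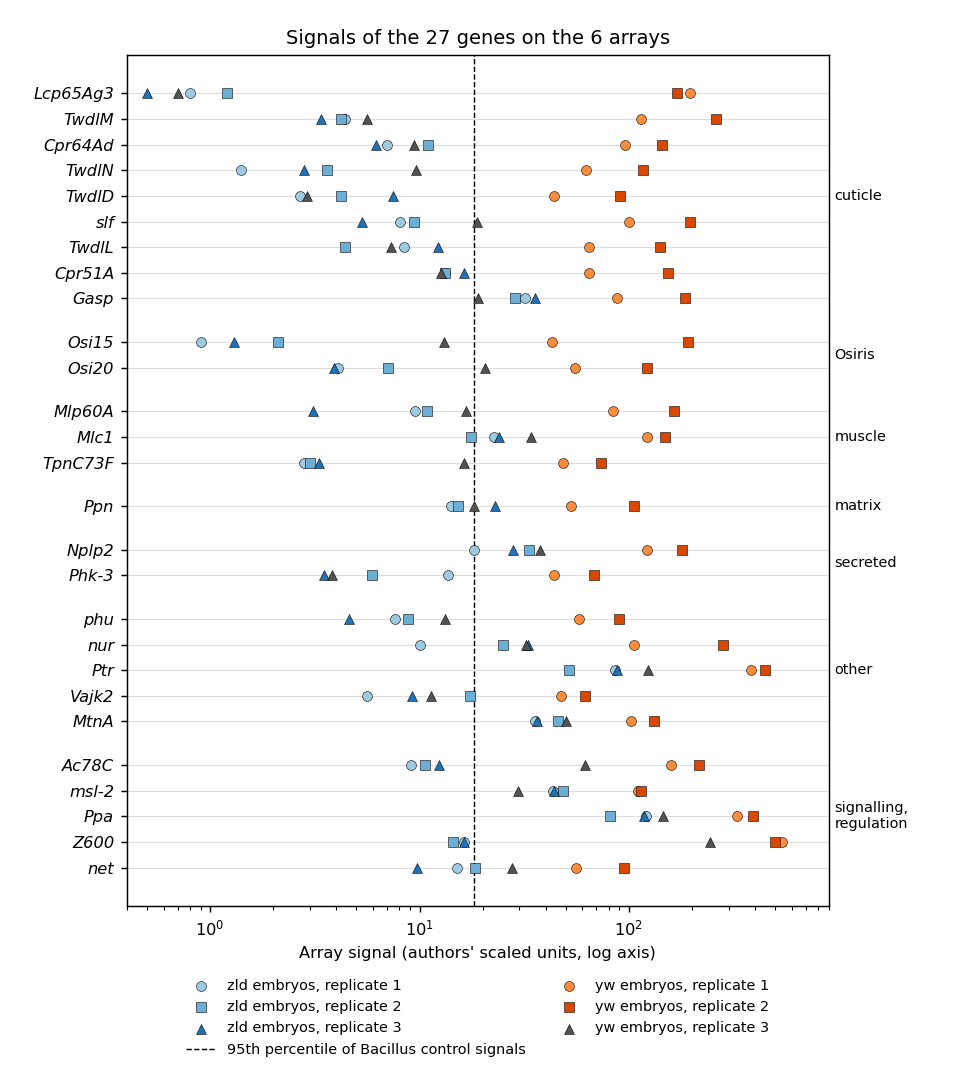
Signal of each of the 27 genes (rows, grouped by role) on the 6 arrays (log axis, in the authors' scaled units); blue symbols are the 3 zld arrays, orange ones yw replicates 1 and 2, dark triangles yw replicate 3, and the dashed line is the background level of 18.1. Both orange symbols lie at 43.0 or more in every row, as the choice of genes required, while the low arrays run from 0.5 for Lcp65Ag3 to 244.4 for Z600 on yw replicate 3.

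Cuticle genes were the largest group, with 9 of the 27. On yw replicates 1 and 2 their median signals were 87.8 and 153.4. The medians on the zld arrays were 7.0, 4.4 and 6.2, and that on yw replicate 3 was 9.4. For 7 of the 9, all 4 low arrays were under background. Lcp65Ag3, a larval cuticle protein gene, had 0.8, 1.2 and 0.5 in zld embryos, against 196.8, 170.2 and 0.7 in yw replicates 1, 2 and 3. The lower of its high arrays stood at least 9.39 times above the low ones, the highest such bound among the 27. Lcp65Ag3 belongs to a set of closely similar copies, and a separate probe set shared by Lcp65Ag1 and Lcp65Ag2 had 4.7, 15.9 and 4.3 in zld embryos, against 155.9, 230.7 and 18.4 in yw replicates 1, 2 and 3, so that the copies cannot be kept apart with certainty.

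The other cuticle protein genes of the Cpr family, whose products carry a chitin-binding domain, were Cpr64Ad and Cpr51A. Cpr64Ad had 7.0, 11.0 and 6.2 in zld embryos, against 95.5, 143.5 and 9.4 in yw embryos. Cpr51A had 13.2, 13.3 and 16.3 in zld embryos, against 64.6, 153.4 and 12.6 in yw embryos. Both were at least 3 times over background on the high arrays and under it on all 4 others.

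The Tweedle (Twdl) family gave 4 members, insect cuticle proteins named for a mutant of TwdlD that makes the larva short and stout. TwdlM had 4.4, 4.2 and 3.4 in zld embryos, against 113.7, 260.0 and 5.6 in yw replicates 1, 2 and 3. TwdlL had 8.4, 4.4 and 12.3 in zld embryos, against 64.5, 140.5 and 7.3 in yw embryos. In all 4 genes yw replicate 2 was the highest array, replicate 1 the next, and the zld arrays and yw replicate 3 were all under background. TwdlN had 1.4, 3.6 and 2.8 in zld embryos, against 62.2, 116.3 and 9.6 in yw embryos. TwdlD had 2.7, 4.2 and 7.5 in zld embryos, against 43.9, 90.8 and 2.9 in yw embryos.

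These 4 Twdl genes are neighbours. In the RefSeq gene order the stretch from TwdlM to TwdlD holds 12 protein-coding genes, all named Twdl, of which 11 had a named probe set. Only the 4 chosen genes met the ratio among these 11, and TwdlB was the fifth with yw replicates 1 and 2 both above the other arrays. TwdlB had 6.0, 3.3 and 9.7 in zld embryos, against 20.3, 88.8 and 14.4 in yw embryos. Other genes between them lacked this order of the arrays. TwdlH had 58.8, 73.2 and 62.4 in zld embryos, against 60, 105.0 and 83.7 in yw embryos, and the groups overlapped. TwdlO and TwdlR were at 4.4 or less on all 6 arrays. Over the whole family, 14 of 24 measured genes had yw replicates 1 and 2 both above the other 4 arrays, where 14.7% of all 11981 genes measured with a single symbol did. The 14 include the 4 chosen genes, which have this order by the rule, and 10 of the other 20 had it. Of these 10, TwdlE, TwdlQ and Twdlbeta were under background on yw replicate 1, at 17.3, 6.3 and 5.8. In TwdlC, TwdlT and TwdlY the lower of yw replicates 1 and 2 stood only 1.05, 1.07 and 1.10 times above the highest other array. TwdlB, TwdlF, TwdlG and TwdlW were above background on both, with the other 4 arrays under it. Outside the stretch, TwdlE, TwdlF and TwdlW met the ratio but not the level. TwdlF had 7.4, 3.2 and 3.8 in zld embryos, against 38.2, 92.7 and 3.4 in yw embryos.

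**Figure D2:**
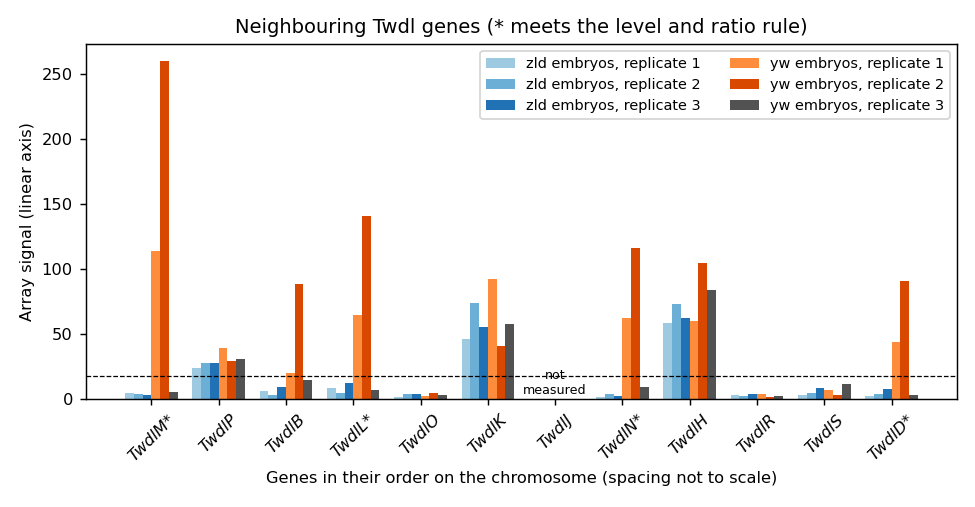
Signals (linear axis) of the 12 neighbouring Twdl genes in their chromosomal order, with 1 bar per array, zld arrays in blue and yw arrays in orange and grey; an asterisk marks the 4 chosen genes and the dashed line the background of 18.1. TwdlM, TwdlL, TwdlN and TwdlD are high on yw replicates 1 and 2 only, while TwdlK and TwdlH between them lie above 40 on all 6 arrays.

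Slf and Gasp complete the cuticle group. The gene slf (schlaff) encodes a lectin-type protein that holds the layers of the larval cuticle together, and had 8.1, 9.4 and 5.3 in zld embryos, against 100.6, 194.7 and 18.9 in yw embryos. Gasp encodes a chitin-binding protein of the tracheal lumen. It had 32.0, 28.5 and 35.7 in zld embryos, against 87.8, 185.8 and 19.1 in yw embryos. Unlike the other cuticle members, Gasp was above background on all 6 arrays, and its lowest signal was that of yw replicate 3.

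Both Osiris genes had their highest signals on yw replicate 2. The Osiris family encodes insect membrane proteins made in cuticle-forming epithelia. Osi15 had 0.9, 2.1 and 1.3 in zld embryos, against 43.0, 191.9 and 13.1 in yw embryos. Osi20 had 4.1, 7.1 and 3.9 in zld embryos, against 55.2, 122.6 and 20.6 in yw embryos. All 3 zld arrays were under background in both genes, and yw replicate 3 was just above it for Osi20 and under it for Osi15. Both lie in the Osiris gene cluster, with 7 protein-coding genes between them in the RefSeq order. Across the family, 10 of 19 measured genes had yw replicates 1 and 2 both above the other arrays, against 14.7% of all genes, and 8 of the 19 were under background on all 6 arrays. Without Osi6, Osi15 and Osi20, which meet the rule, it was 7 of 16. Of these 7, only Osi14 was above background on both yw replicates 1 and 2, at 55.3 and 92.3. Most of that count therefore rests on dim signals. The brightest gene of the family was Osi6, which met the rule but was left out of the 27. Osi6 had 3.4, 7.8 and 7.6 in zld embryos, against 212.3, 561.2 and 83.5 in yw embryos.

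Genes of the contractile apparatus formed a group of 3. Mlp60A, a muscle LIM protein gene, had 9.5, 10.9 and 3.1 in zld embryos, against 83.8, 164.4 and 16.6 in yw embryos. Mlc1, an alkali light chain gene of muscle myosin, had 22.7, 17.6 and 23.9 in zld embryos, against 121.9, 149.3 and 34.1 in yw embryos. TpnC73F, a troponin C gene, had 2.8, 3.0 and 3.3 in zld embryos, against 48.7, 73.5 and 16.3 in yw embryos. For Mlp60A and TpnC73F all 4 low arrays were under background, while in Mlc1 yw replicate 3 lay above background and above the zld arrays.

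Other probe sets gave a second reading of 3 of the 27 genes from the same RNA, and the choice of genes did not use them. For Mlp60A, 2 further probe sets were under background on every array. For TpnC73F a further probe set was also under background throughout, at 3.9, 3.5 and 5.1 in zld embryos, against 9.5, 1.4 and 8.4 in yw embryos. The brighter one of Mlp60A had 2.4, 2.0 and 3.1 in zld embryos, against 9.1, 16.7 and 3.2 in yw embryos. Yw replicates 1 and 2 were its highest arrays, at a level where signals cannot be ranked. The second probe set of Vajk2 was the only one of these above background on any array, with 11.4, 23.4 and 9.9 in zld embryos, against 37.0, 51.6 and 8.8 in yw embryos. It was again higher on yw replicates 1 and 2 than on the other 4 arrays, at 1.58 times the highest of them. The first probe set of Vajk2 had 5.6, 17.5 and 9.2 in zld embryos, against 47.3, 61.9 and 11.3 in yw embryos.

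Among a list of 30 muscle genes, 22 were measured, and 11 of these had yw replicates 1 and 2 both above the other 4 arrays. Without Mlc1 and TpnC73F, which have this order by the rule, it was 9 of 20. The ratio of 2 was met by 5 of the 22. Besides Mlc1 and TpnC73F these were Mlc2, up and Mp20, all under a level of 40. Mp20, a muscle protein gene, came closest, with 1.3, 1.1 and 0.8 in zld embryos, against 38.9, 44.7 and 2.0 in yw embryos. The troponin T gene up had 3.2, 1.4 and 2.7 in zld embryos, against 30.3, 51.0 and 3.5 in yw embryos. The summed signal of the 22 genes was 568.9 to 666.8 on the zld arrays, against 1050.5, 1344.1 and 700.3 on yw replicates 1, 2 and 3. A large share of each sum came from Actn alone. Actn had 345.0, 247.5 and 304.2 in zld embryos, against 427.2, 385.2 and 387.2 in yw embryos. The place of yw replicate 3 above the zld arrays in this sum is therefore not read as a trait of the list.

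Matrix and secreted proteins were represented by Ppn, Nplp2 and Phk-3. Ppn encodes papilin, an extracellular matrix protein. It had 14.1, 15.2 and 22.9 in zld embryos, against 53.1, 105.3 and 18.2 in yw embryos, so that yw replicate 3 fell within the zld range. Nplp2, annotated as a neuropeptide-like precursor, had 18.2, 33.5 and 28.1 in zld embryos, against 122.0, 178.3 and 37.5 in yw embryos. Phk-3, a pherokine gene, had 13.7, 5.9 and 3.5 in zld embryos, against 44.1, 68.2 and 3.8 in yw embryos. Of the left-out basement membrane genes, the collagen IV genes vkg and Col4a1 met the rule. SPARC, LanA and LanB1 did not, with LanA nearest at 1.63 times its highest low array. Col4a1 had 16.2, 7.7 and 22.3 in zld embryos, against 74.3, 89.4 and 25.8 in yw embryos, so that yw replicate 3 lay just above the zld arrays. In vkg the signals were 7.4, 6.6 and 6.7 in zld embryos, against 56.2, 83.4 and 10.6 in yw embryos.

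The next 5 members were not grouped by a tissue. Ptr, a gene related to the Hedgehog receptor gene patched, was the second brightest of the 27, with 85.6, 51.5 and 88.0 in zld embryos, against 382.0, 444.5 and 123.6 in yw embryos. MtnA, a metallothionein gene of metal binding, had 35.7, 45.9 and 36.4 in zld embryos, against 102.7, 132.1 and 49.8 in yw embryos. Both were above background on all 6 arrays. The gene nur had 10.0, 25.1 and 33.1 in zld embryos, against 106.1, 280.4 and 32.1 in yw embryos. The gene phu had 7.6, 8.8 and 4.6 in zld embryos, against 58.0, 89.4 and 13.3 in yw embryos. Vajk2, described above, is the last of them.

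Genes of signalling and regulation made up a group of 5, with no structural gene of cuticle or muscle among them, and a description as late tissue genes does not cover Z600, which is in the list of early blastoderm genes. Z600, also called frühstart, encodes an inhibitor of mitosis in the cellularizing embryo and was the brightest of all. It had 16.3, 14.5 and 16.3 in zld embryos, against 537.1, 498.6 and 244.4 in yw embryos. The adenylyl cyclase gene Ac78C had 9.1, 10.6 and 12.4 in zld embryos, against 159.0, 215.2 and 61.5 in yw embryos. For these 2 genes the zld arrays were all under background and all 3 yw arrays were well above it, so "high on replicates 1 and 2" describes only a part of their pattern.

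The remaining 3 regulators differed in where the low arrays lay. Ppa, which encodes an F-box protein that targets the pair-rule protein Paired, had 120.4, 81.0 and 117.8 in zld embryos, against 329.9, 391.6 and 146.2 in yw embryos. The gene net, for a basic helix-loop-helix repressor of wing vein formation, had 15.1, 18.5 and 9.7 in zld embryos, against 56.1, 94.3 and 27.7 in yw embryos. Yw replicate 3 was above all zld arrays in both. It was below all of them in msl-2, whose product is the male-limiting subunit of the dosage compensation complex. Msl-2 had 43.3, 48.7 and 44.1 in zld embryos, against 110.2, 114.3 and 29.6 in yw embryos, and its probe set carries the suffix _s_at, which marks probes that can match more than 1 transcript.

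The rule set an upper limit on the 4 low arrays but no order among them. In 13 of the 27 genes all 4 were under background, and their order is not read. In the other 14 genes yw replicate 3 was above all 3 zld arrays for 10, within their range for nur and Ppn, and below them for Gasp and msl-2. For 4 of the 10, Z600, Ac78C, Osi20 and slf, yw replicate 3 was the only low array above background. They are among the 14 through that array alone, so their place is fixed in advance. Of all 7979 named probe sets, 32.8% had yw replicate 3 above all 3 zld arrays. That share includes dim probe sets and is not a like comparison. With the background as the floor for dim zld arrays, yw replicate 3 was at least 13.5-fold higher for Z600 and at least 3.39-fold higher for Ac78C. No other gene of the 27 reached 2 times the larger of the floor and the highest zld array. In Osi20 and slf the zld arrays were also under background, but the signals of yw replicate 3, 20.6 and 18.9, were barely above it. In Mlc1, Ptr and net yw replicate 3 stood at 1.43, 1.40 and 1.5 times the highest zld array.

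**Figure D3:**
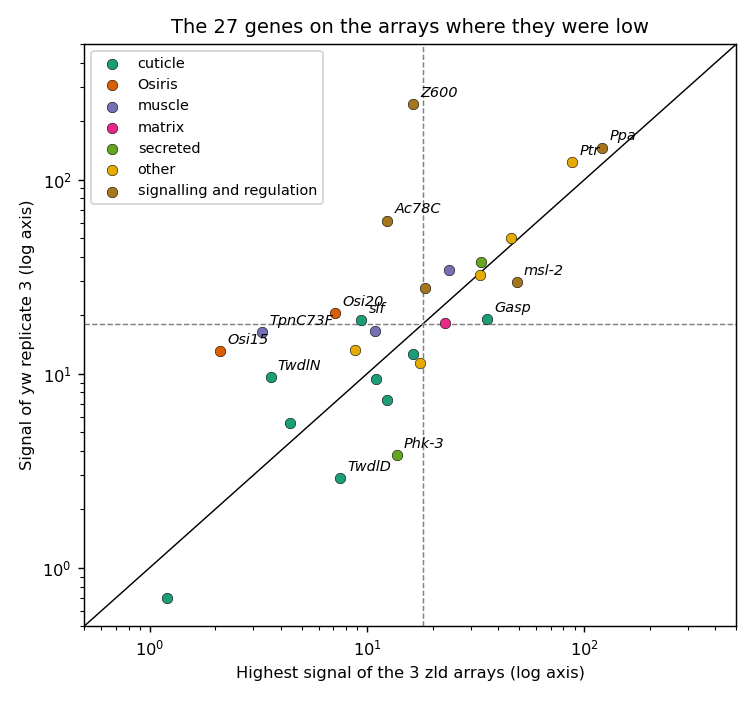
Signal of yw replicate 3 against the highest of the 3 zld arrays for the 27 genes (both log axes), coloured by role; the solid line marks equal signals and the dashed lines the background of 18.1. Z600 and Ac78C stand far above the line at 244.4 and 61.5 on yw replicate 3, 7 of the 9 cuticle genes lie at the lower left, below background on both axes, and msl-2 and Gasp lie under the line.

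Nor did the rule fix which of yw replicates 1 and 2 was higher. Replicate 2 was higher in 25 of the 27 genes, all but Lcp65Ag3 and Z600, with a median ratio of replicate 2 to replicate 1 of 1.55. Over the 4232 named probe sets with a signal of 40 or more on both arrays, replicate 2 was higher in 49%, with a median ratio of 0.99 and a 5th to 95th percentile of 0.667 to 1.53. A ratio of 1.5 or more was found in 17 of the 27 genes and in 5.55% of those probe sets. Those probe sets were not matched to the 27 genes in brightness. The median signal of all probe sets other than controls was 20.3 on replicate 1 and 23.3 on replicate 2. Summed signals were also higher on replicate 2 in the blastoderm list, 7457 against 5396, and in a neuroblast list, 1411.8 against 938.6. They were lower in the gut, eggshell and salivary gland lists. A higher replicate 2 is therefore not particular to the 27 genes. Each array is a single sample, so the ratio has no replicate error.

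The ratio varied with the role of the gene. Both Osiris genes were the most uneven as a group, at 4.46 for Osi15 and 2.22 for Osi20. The 9 cuticle genes had a median of 2.07. Apart from Lcp65Ag3 at 0.86 they lay between 1.5 for Cpr64Ad and 2.37 for Cpr51A. The muscle genes lay at 1.22, 1.51 and 1.96, for Mlc1, TpnC73F and Mlp60A. The 5 regulators had the lowest median, 1.19, with Z600 at 0.93, msl-2 at 1.04, Ppa at 1.19, Ac78C at 1.35 and net at 1.68. Among the other genes nur stood at 2.64 and Ptr at 1.16. The role groups were drawn after the values were seen, so the differences between them carry no test.

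**Figure D4:**
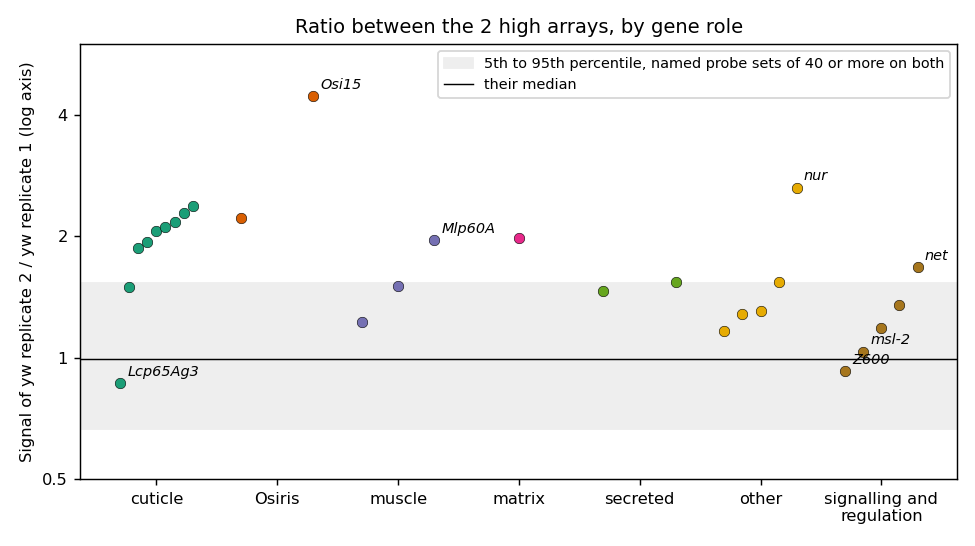
Ratio of the signal on yw replicate 2 to that on yw replicate 1 (log axis) for the 27 genes, 1 point per gene, grouped by role; the line is the median (0.99) and the grey band the 5th to 95th percentile (0.667 to 1.53) of the 4232 named probe sets with 40 or more on both arrays. Of the 9 cuticle points only Lcp65Ag3 lies below 1, Osi15 is highest at 4.46, and 4 of the 5 regulators lie inside the band.

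The direct comparison of zld and yw embryos was fitted over all 18769 probe sets other than controls with limma. The fit called 146 probe sets (0.778%) lower and 162 higher in zld embryos; with each array centred on its median these were 127 and 552, and the median log2 fold change of all probe sets was 0.11 against -0.05 as scaled. It called 2 of the 27 genes lower, Z600 and Ac78C, and none higher, and the fold change was below 0 in all 27. Because the genes were chosen with these same signals, nothing is read from that count. The count was 24 when yw replicate 3 was left out, where 213 of all 18769 probe sets were called lower. That fit keeps only the yw arrays on which the genes were chosen to be high. The count was 1 when yw replicate 1 was left out, with 137 called in all. It was also 1 without zld replicate 1, 2 or 3, with 66, 56 and 45 called in all. With yw replicates 1 and 2 both left out, so that 1 yw array was assumed to vary like the zld arrays, Z600 alone was called lower, where 43 probe sets (0.229%) were called in all, and the fold change was below 0 in 20 of the 27 genes.

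Other lists of tissue genes were examined for the same order of arrays, and their shares include any gene that has it by the rule. Yw replicates 1 and 2 were both above the other 4 arrays for 14.6% of named probe sets and 14.7% of genes. The share was 41.7% of 12 tracheal genes, where Gasp was joined at the ratio of 2 by obst-A, a chitin-binding protein gene, with 7.7, 4.7 and 8.7 in zld embryos, against 30.9, 51.2 and 3.4 in yw embryos. Without Gasp it was 4 of 11, of which verm, serp and vvl were under background on yw replicate 1, at 6.5, 14.1 and 7.3. It was 50% of 12 basement membrane genes, but 3 of 9 without Ppn, vkg and Col4a1, which meet the rule. It was 43.8% of 16 neuronal genes. Of the neuronal genes, 8 were under background on all 6 arrays, so their counts rest on dim signals. For 17 gut genes, 8 of them also dim throughout, the share was 41.2%. Among 76 genes of the Cpr, Lcp and Ccp cuticle families it was 31.6%, with 33 under background on all arrays, and 21 of 73 without the 3 chosen genes.

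No list was tested against all genes. The share was 16.7% of 18 blood cell genes, among which Ppn was the only one to meet the ratio (2 of 17 without it), 11.8% of 17 septate junction genes and 9.09% of 11 salivary gland genes. In the list of epidermis and cuticle, which holds enzymes, transcription factors and apical matrix proteins rather than structural cuticle proteins, it was 20% of 15 genes. Eggshell and yolk protein genes, made in the mother, stood at 20% of 15, with a summed signal of 171.3 to 217.3 on the zld arrays, against 288.1, 198.1 and 225.2 on yw replicates 1, 2 and 3. Of 13 maternal genes, 3 had the pattern, and their summed signal was 12654 to 14624 on the zld arrays, against 11746, 13151 and 14026 on the yw arrays, a range that overlapped between the groups. Smaller lists stood at 33.3% of 9 glial genes, 30.8% of 13 heart genes, 28.6% of 7 fat body genes. In the Vajk family 3 of 4 genes had the pattern, Vajk2 included.

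Early genes of the blastoderm shared part of the pattern. Of 20 measured genes of this list, 11 (55.0%) had yw replicates 1 and 2 above the other 4 arrays, though only Z600 met the ratio. Without Z600 it was 10 of 19. Their summed signal was 1339 to 1512 on the zld arrays, against 5396, 7457 and 4474 on yw replicates 1, 2 and 3. The sum on yw replicate 3 lay above all zld arrays and below yw replicates 1 and 2. That of the 9 cuticle genes on yw replicate 3, 86.1, lay within the range of the zld arrays, 78.0 to 90.0, with most of these signals under background. The rule limited yw replicate 3 for these 9 genes but not for the blastoderm list, so the sums are not comparable. Over all 76 measured Cpr, Lcp and Ccp genes, yw replicate 3 summed to 1238.0, above the zld arrays at 903.3 to 1022.9. In the list of epidermis and cuticle it lay within the zld range, but most of that sum came from 1 gene, ovo. The signals of ovo were 1455.1, 1686.9 and 2051.5 in zld embryos, against 1422.1, 1400 and 1871 in yw embryos. That sum therefore says little about the other genes of the list. Of 8 neuroblast genes, a list that shares sc with the blastoderm list, 5 had the pattern, with a summed signal of 374.6 to 440.1 on the zld arrays, against 938.6, 1411.8 and 792.0 on the yw arrays. When yw replicate 3 was dropped from the rule, 77 genes met it in place of 27. Of the 50 added genes, in which yw replicate 3 is above every zld array by construction, 13 were in the blastoderm list, among them halo, scw and tsg.

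**Figure D5:**
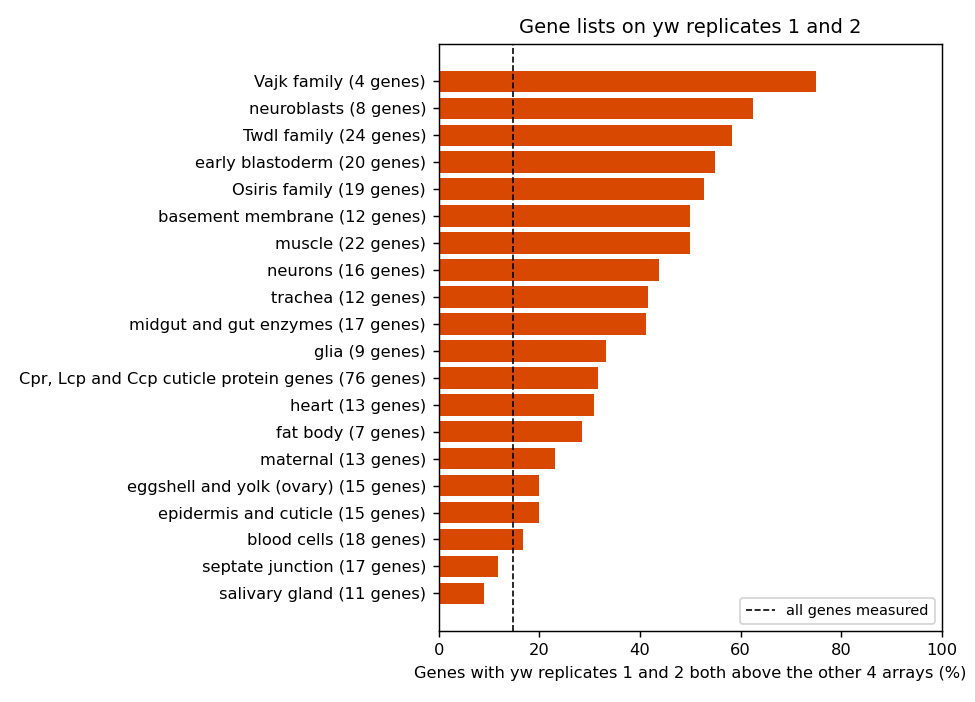
Share of the measured genes of each list with yw replicates 1 and 2 both above the other 4 arrays (bars from 0 to 100%), with the number of genes measured in brackets and genes that have this order by the rule included; the dashed line is the share of all genes, 14.7%. The Vajk (75%), neuroblast (62.5%), Twdl (58.3%), blastoderm (55.0%), Osiris (52.6%), muscle (50%) and basement membrane (50%) lists lie furthest right. Only the salivary gland (9.09%) and septate junction (11.8%) lists lie left of the line.

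The thresholds cut through a continuous range. Just inside the ratio of 2 were net at 2.03, Z600 at 2.04, MtnA at 2.06 and Ppa at 2.26. Just outside it, with the level met, were Sr-CII at 1.99, salm at 1.94, link at 1.93 and Cpr65Ea at 1.91. Sr-CII, a scavenger receptor gene, had 58.0, 86.5 and 75.6 in zld embryos, against 172.5, 193.6 and 71.8 in yw embryos. At the level of 40, Osi15 was just inside with 43.0 on its lower high array, and Mp20 with 38.9 and TwdlF with 38.2 were just outside. A ratio of 3 left 16 genes and a ratio of 1.5 gave 50.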

How the data were processed

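Signals of 18952 probe sets were deposited for 6 arrays, 3 per group, which the labels call replicates; whether all came from separate collections is not settled, since the sample labels speak of duplicate collections, so the spread may be partly technical. The values are linear intensity signals that the authors made and normalized with the Affymetrix GCOS software, per the labels' protocols. From the values, the 2% trimmed mean was 150.0 on every array, so a global scaling is built in. No source used here names the software's version.

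The signals were used as scaled. The platform annotation gave exactly 1 symbol to 13646 of 18769 probe sets other than 183 controls, several to 402 and none to 4721; all 27 genes matched RefSeq (GCF_000001215.4) by gene identifier. That table served only for names and gene order, and no sequences were used. For lists and families the brightest probe set stood for a gene. Group differences were fitted with limma 3.58.1 (R 4.3.3, lmFit, eBayes with trend) on log2(signal + 16), with Benjamini-Hochberg adjustment over all probe sets and calls at an adjusted p under 0.05, and the fit was tested on simulated data. The simulated arrays varied independently with equal spread, so that test does not cover 1 array departing from its group over many genes. Tables were made with Python 3.11.15 and pandas 2.3.3, figures with matplotlib 3.10.9.

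The genes, the lists, the thresholds and the alternatives were chosen with earlier results of these data known, and the Twdl, Cpr and Vajk families and the role groups after the values were seen. Genes were named with values by 1 rule: the 12 highest ratios of the lower of yw replicates 1 and 2 to the highest other array, the 6 brightest, the 4 lowest ratios and the 4 named probe sets just under 2, members in a list or with another probe set, the 4 highest and 4 lowest ratios of yw replicate 2 to 1, and left-out genes meeting the rule. All other genes given with values, Nplp2 and Phk-3 included, were added after their values were seen. Precision is limited by having 3 arrays per group.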

Additional observations from a re-analysis of the deposited data

How the results depend on the processing

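Of the 27 genes, 25 met the rule under quantile normalization and 22 with arrays scaled to the same median. A level of 30 gave 42 genes, a ratio of 1.5 gave 50 and a ratio of 3 gave 16; leaving out 1 low array gave 28 to 77. The median ratio of yw replicate 2 to replicate 1 was 1.55 and 1.35 under those scalings and 1.43 with 16 added to every signal. Adding 16 left 20 of the 27 genes at a ratio of 2 or more and moved 12 ratios by over 1.5 times; none fell under 1 in any of the 3 settings. In the limma fit, 146 probe sets were lower and 162 higher in zld embryos. The filter on dim probe sets gave 264 and 327, the methods' t-test after adjustment 0 and 2, and yw replicates 1 and 2 left out together 43 and 51. The count at an unadjusted p under 0.05 by the methods' t-test was 1485 lower. Median centring gave 127 lower and 552 higher. Leaving out 1 array gave 45 to 213 lower and 35 to 227 higher. Of the 27 genes, 2 were called lower in the fit, out of 146 in all among 18769 probe sets. With a pseudocount of 1 it was 5 of 175 called lower, and with 64 it was 1 of 108. With the filter it was 7 of 264, among only 9386 probe sets tested. By the t-test it was 0. With 1 array left out it was 1 to 24, where 45 to 213 were called lower in all. With the replicate number as a block, 76 were lower and 75 higher, and 2 of the 27 were called; the numbers did not pair the samples (correlations of same-numbered deviations 0.15, -0.0015 and -0.035, and only number 1 matched best with itself). The causes were not tested. Signals under about 18 cannot be ranked.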

Other observations

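A further 27 probe sets met the same level and ratio but carried a CG number (17), several genes (6) or no gene (4). CG2962 was the brightest of the CG genes on yw replicate 2, with 9.4, 18.3 and 7.7 in zld embryos, against 237.6, 477.0 and 11.0 in yw replicates 1, 2 and 3. CG4115 had 2.9, 3.9 and 2.4 in zld embryos, against 49.1, 96.6 and 5.5 in yw embryos. A probe set shared by the cuticle protein genes Cpr65Ax1 and Cpr65Ax2 had 10.3, 4.5 and 8.1 in zld embryos, against 86.5, 68.6 and 2.0 in yw embryos. It was higher on replicate 1 than on replicate 2, as Lcp65Ag3 was. CG14915 had 4.8, 3.3 and 2.7 in zld embryos, against 427.5, 469.1 and 197.7 in yw embryos, with all yw arrays far above all zld arrays, as in Z600. Yw replicate 2 was higher than replicate 1 in 20 of these 27 probe sets, with a median ratio of 1.37, and in 7 of them all 4 low arrays were under background. These counts describe how the probe sets were picked and the same 6 arrays, and they are no independent support.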
